A study of Mus musculus with 12 samples.

Results

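Gfpt2 encodes a glutamine:fructose-6-phosphate amidotransferase, the enzyme that commits fructose-6-phosphate to the hexosamine pathway. It was examined across 4 mouse embryonic stem (ES) cell lines together with the enzymes that act beside it and after it. Every array feature for a gene whose name or description named Gfpt2, Gfpt1, Gnpnat1, Pgm3, Uap1 or Ogt was taken. All 6 of 6 enzymes were found, on 7 of the 20281 gene features of the array, with 1 feature for each gene (A_65_P00570 for Gfpt2) except Ogt, which had 2. Gfpt2 was chosen by its measured ratio, higher in HP3 and RKPG9 than in EB5, so its own values are given as a description without a test.

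The hexosamine pathway draws on glucose and glutamine and ends in UDP-GlcNAc, the sugar donor from which cells build N-glycans, hyaluronan and heparan sulphate. Gfpt1 and Gfpt2 are paralogs that catalyse its entry step, Gnpnat1 acetylates the product, Pgm3 moves the phosphate, and Uap1 attaches the uridine nucleotide. Ogt then transfers GlcNAc from UDP-GlcNAc to nuclear and cytoplasmic proteins, where Oga removes it again.

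EB5 was the wild-type line (Rex1+/+). RKPG9 was a single heterozygous clone (Rex1+/-) in which a puromycin resistance and EGFP cassette, pacEGFP, replaced the start of the Rex1 open reading frame. HP3 and HP4 were homozygous (Rex1-/-) lines. Homozygous lines were made both from RKPG9 by high-dose puromycin and with a further vector under hygromycin B, and the route to HP3 and HP4 is not given in the sources used here. All lines derive from feeder-free E14tg2a ES cells grown in serum with LIF, and each was hybridised on 3 arrays, with its RNA in Cy3 and a reference RNA pooled from mouse cell lines in Cy5, without a dye swap. A level below is the log2 ratio of line over reference after normalisation within the array, and a difference is the level of one line minus that of another.

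The 3 arrays of a line correlated at r = 0.9805 to 0.9923 over all features and arrays of different lines at 0.9313 to 0.9781. Between 85.3% and 94.4% of features were well above background in Cy3. The 3 EB5 arrays were read in another extraction session than the other 9, with background adjustment on instead of off, so for every comparison with EB5 the line and the session cannot be told apart, whereas RKPG9, HP3 and HP4 share 1 session. The labels do not state whether a line's arrays are independent cultures, and the p-values reflect array-to-array scatter that may be technical. Zfp42, the gene of Rex1, was read by 2 features, and the knockout allele still gives a fused transcript that these may detect. Their differences were -0.04 and 0.01 in HP3 against EB5 (adjusted p = 0.742 and 0.92, limma) and at -0.52 and -0.53 in HP4 against EB5 (adjusted p = 0.000296 and 0.000499).

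Of the ES cell markers 10 of 12 were measured, and all 10 were well above background in every line. Together they took 0.208 to 0.227% of the summed Cy3 signal of the EB5 arrays, 0.243 to 0.248% for RKPG9, 0.175 to 0.192% for HP3 and 0.135 to 0.152% for HP4. These sums are not normalised to the reference and weigh the brightest genes most. By the median level of the same markers HP3 was above EB5, with 2.64 for EB5, 3.01 for RKPG9, 2.99 for HP3 and 2.55 for HP4. The 7 measured trophoblast markers, of 9 listed, took 0.0183 to 0.0193% for EB5 against 0.0113 to 0.0123% for RKPG9, 0.00993 to 0.0114% for HP3 and 0.00828 to 0.0102% for HP4. The 5 fibroblast markers measured of 11 took 0.0224 to 0.0302% and the 9 primitive endoderm markers of 10 took 0.00347 to 0.0051% over all arrays. The part of these markers in the results below was not tested.

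Gfpt2 RNA was higher in the heterozygous line and in both knockout lines than in wild-type EB5. Its level was 1.55, 1.43 and 1.54 on the 3 EB5 arrays, 3.15, 3.15 and 3.20 for RKPG9, 2.99, 3.10 and 2.96 for HP3, and 2.23, 2.60 and 2.60 for HP4. The arrays of the 4 lines did not overlap, and the order from highest to lowest was RKPG9, HP3, HP4, EB5. The line means were 1.51 ± 0.07 (SD, n = 3) for EB5, 3.17 ± 0.03 for RKPG9, 3.02 ± 0.07 for HP3 and 2.48 ± 0.21 for HP4. All lines held more Gfpt2 RNA than the reference, 2.85-fold in EB5 and 8.98-fold in RKPG9, with HP3 at 8.11-fold and HP4 at 5.57-fold.

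**Figure D1:**
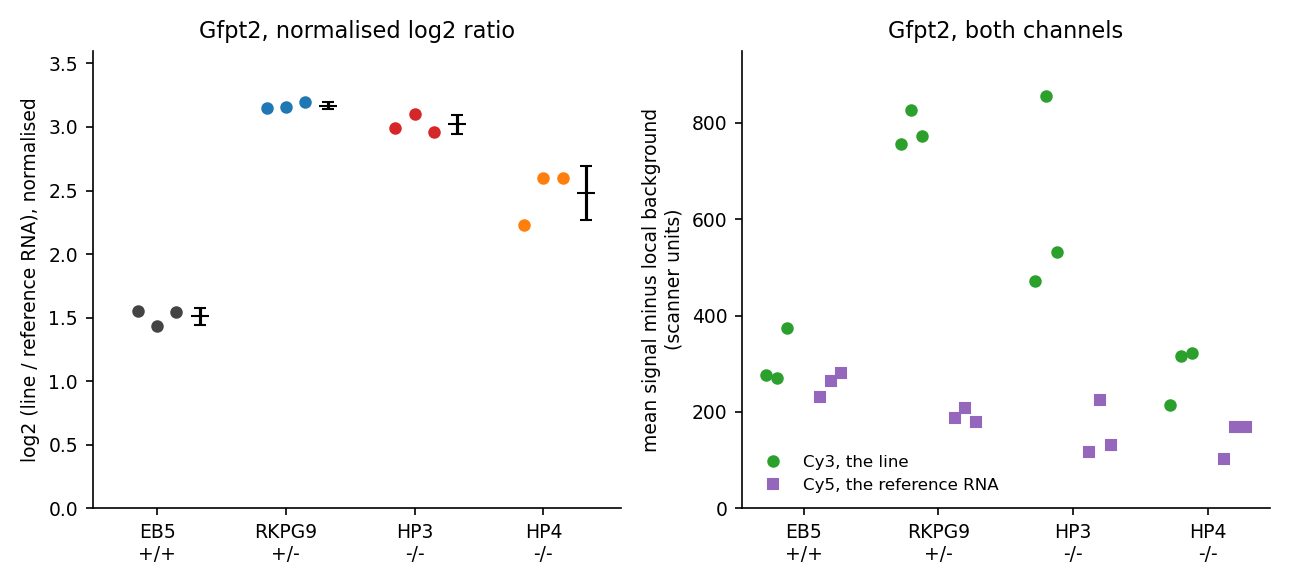
Gfpt2 on every array. The left panel plots the normalised log2 ratio of line over reference RNA for the 3 arrays of each line with the mean and SD, and the right panel plots the mean spot signal minus its local background in scanner units, circles for the line (Cy3) and squares for the reference (Cy5). The EB5 arrays lie at 1.43 to 1.55 and no array of another line is below 2.23.

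Against EB5, Gfpt2 was 2.85-fold higher in HP3 (log2 difference 1.51, SE 0.09), 1.96-fold higher in HP4 (0.97) and 3.15-fold higher in RKPG9 (1.66). In RNA of whole cultures, more cells that express a gene and more RNA per cell cannot be told apart. Ranked by signed difference, Gfpt2 was at position 1 of 20236 features in HP3 against EB5, 4 of 20241 in RKPG9 against EB5 and 5 of 20242 in HP4 against EB5. By size of difference in either direction it was at position 16 in HP3, 19 in RKPG9 and 65 in HP4. Gfpt2 was chosen for its high ratio in HP3 and RKPG9, so the ranks are only a description. These 3 comparisons share the EB5 arrays. As background, 11.4% of all features were higher at an adjusted p under 0.05 in HP3 than in EB5, 12.5% in RKPG9 and 18.4% in HP4, and 7, 31 and 1 features were also past 2-fold.

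Within the session that RKPG9, HP3 and HP4 share, the Gfpt2 level as processed here was highest in the heterozygous line, with HP3 close to it. HP3 lay 0.15 below RKPG9 on the log2 scale (SE 0.09), with its highest array at 3.10 and the lowest of RKPG9 at 3.15. With the scanner's processed signals HP3 minus RKPG9 was -0.013. The brightest Gfpt2 spot in Cy3 was that of HP3 replicate 2, at 856 units over background. HP4 lay 1.61-fold below RKPG9 (log2 difference -0.69) and 1.46-fold below HP3 (-0.54), with HP4 replicate 1 the lowest of its 3 arrays. The ES cell marker sums of HP4 were below those of HP3, and 7 of the 10 markers measured were lower in HP4 at an adjusted p under 0.05, beside 14.7% of all features. EB5, the line with the lowest Gfpt2 level, had marker sums of 0.208 to 0.227%, against 0.175 to 0.192% for HP3. By the median marker level HP3, at 2.99, was above EB5, at 2.64, and HP4, at 2.55, was below it. RKPG9, the line with the highest Gfpt2 level, was highest in both marker measures (0.243 to 0.248% and 3.01). Whether Gfpt2 and the markers are linked was not tested.

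In the unnormalised spots RKPG9 and HP3 were also brighter than EB5 and HP4. The Cy3 signal minus local background was 277, 270 and 374 scanner units on the EB5 arrays, 756, 827 and 772 for RKPG9, 472, 856 and 531 for HP3, and 215, 316 and 322 for HP4. The HP4 values overlapped those of EB5 before normalisation, and the HP4 arrays were the dimmest as a whole, with a median Cy3 signal of 481.5 to 487.4 against 546.9 to 577 in EB5. Relative to the other gene features of the same array, the Gfpt2 spot was at percentile 68.8 to 72.1 for EB5, 87.3 to 88 for RKPG9, 84.8 to 88.6 for HP3 and 81 to 84.9 for HP4, with no overlap between EB5 and the others. The Cy5 signal of the shared reference, which should not depend on the line, was 231 to 280 in EB5 and 102 to 224 in the other lines.

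With each channel scaled on its own to the array median, the Cy3 difference of Gfpt2 was 1.25 in HP3, 0.62 in HP4 and 1.46 in RKPG9 against EB5. The Cy5 difference was -0.12, -0.17 and -0.05. The larger part of each difference was thus in the line channel. The spot was well above background in both channels on all 12 arrays and saturated on 0. It sits in column 1 of the array, and its local background was marked as an outlier on 8 of 12 arrays, among them all 3 of EB5. The background itself differed little between arrays, at 386 to 393 units in Cy3.

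**Figure D2:**
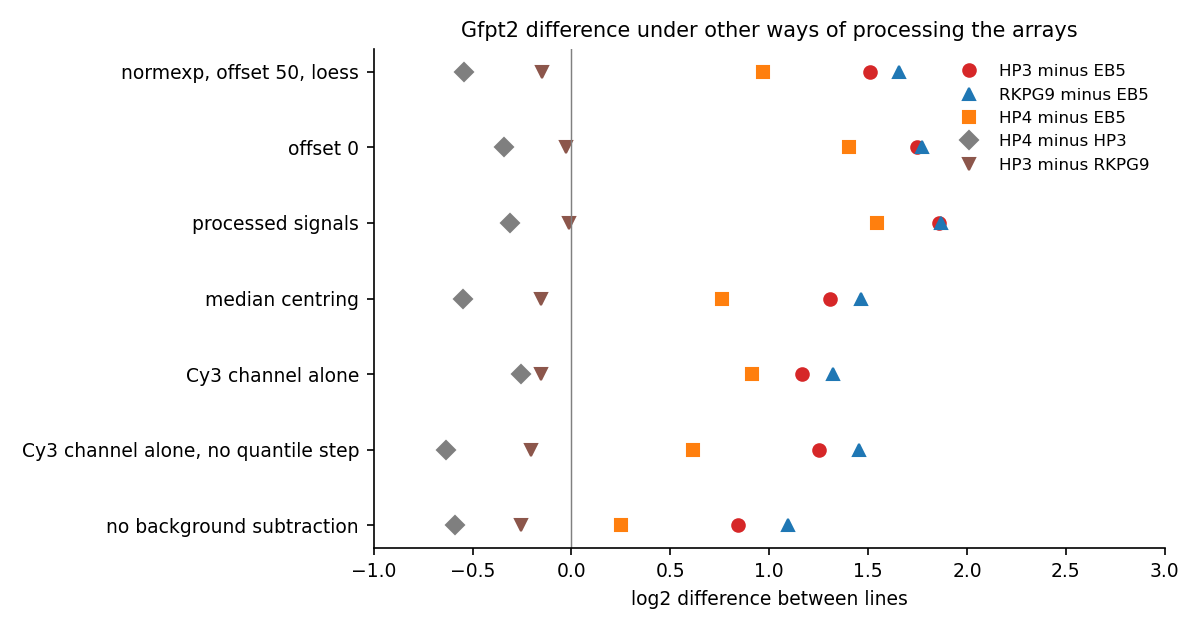
Gfpt2 difference between lines (log2, x axis) for 5 pairs of lines, computed under 7 ways of processing the same arrays (y axis), the first of which is used in the text. The differences from EB5 stay above 0 in each, between 0.84 and 1.86 for HP3 and between 0.25 and 1.55 for HP4, and HP4 lies below HP3 throughout.

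The sign of all 6 Gfpt2 differences was kept under each alternative processing that gave a value, but the size was not. Some alternatives, such as a filter on dim probes, could not change a Gfpt2 difference. The difference of HP3 from EB5 ran from 0.84 without background subtraction to 1.86 with the scanner's own processed signals, that of RKPG9 from 1.10 to 1.87, and that of HP4 from 0.25 to 1.55. HP3 and RKPG9, 0.15 apart as processed here, were 0.01 apart with the processed signals.

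The promoters of the paralogs are shown because Gfpt2 and Gfpt1 catalyse the same step. Their ratios differed on these arrays, with Gfpt1 near the limit of detection. They are the 250 bases before the annotated start of each gene in RefSeq (build GRCm38.p6, plus strand), Gfpt2 at chr11:49793905-49794154 and Gfpt1 at chr6:87042596-87042845, in lower case with the motif matches on either strand in capitals. The motifs searched were the TATA box core TATAA, the CCAAT box CCAAT, the GC box GGGCGG and the core of YY1, a zinc finger factor related to Rex1, as CCATNTT.
Gfpt2: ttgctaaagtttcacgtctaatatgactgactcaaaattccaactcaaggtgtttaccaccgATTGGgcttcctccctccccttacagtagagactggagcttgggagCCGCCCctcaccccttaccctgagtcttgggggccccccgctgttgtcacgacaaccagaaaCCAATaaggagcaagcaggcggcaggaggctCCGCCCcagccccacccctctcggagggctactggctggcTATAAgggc
Gfpt1: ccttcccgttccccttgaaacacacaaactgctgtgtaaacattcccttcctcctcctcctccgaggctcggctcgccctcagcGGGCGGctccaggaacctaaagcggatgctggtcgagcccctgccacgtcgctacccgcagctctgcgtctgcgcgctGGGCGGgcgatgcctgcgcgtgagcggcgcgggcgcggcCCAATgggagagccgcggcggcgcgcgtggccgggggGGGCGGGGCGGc

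The Gfpt2 window held TATAA with its first base at -9 from the start, CCAAT at -80 and, on the reverse strand, at -188, and GGGCGG on the reverse strand at -142 and -49. The Gfpt1 window held CCAAT at -49 and GGGCGG at -166, -88, -12 and -7, the last pair overlapping, and no TATAA. The YY1 core CCATNTT was in neither window. Over 32841 RefSeq promoter windows of the same length, 22.8% held TATAA, 33.9% CCAAT, 32.7% GGGCGG and 12.4% CCATNTT. Gfpt1 had a GC content of 72.0% and 32 CpG dinucleotides and Gfpt2 57.6% and 8, beside medians of 52.4% and 6 over all windows. A match is a description of these letters and not a binding site.

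Gfpt1, the paralog that is expressed in most tissues, was near the limit of detection. As processed here its ratio was not higher in RKPG9 or HP3 than in EB5, but spots this dim say little about its RNA. Its level was -0.61, -0.94 and -0.92 on the EB5 arrays, -1.21, -1.17 and -1.16 for RKPG9, -1.22, -1.10 and -1.04 for HP3, and -0.99, -0.59 and -0.88 for HP4. The RKPG9 and HP3 arrays lay below all EB5 arrays, and those of HP4 overlapped EB5. In Cy3 the spot was well above background on 3 of 3 EB5 arrays, 2 of 3 of RKPG9, 1 of 3 of HP3 and 0 of 3 of HP4, at 38.2 to 68.2 units over background.

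Gfpt1 was 1.28-fold lower in RKPG9 than in EB5 (log2 difference -0.36, SE 0.10, adjusted p = 0.0187, limma) and 1.23-fold lower in HP3 (-0.30, adjusted p = 0.0483). The first call was lost without EB5 replicate 1 (-0.25, adjusted p = 0.0753) or RKPG9 replicate 1 (-0.34, adjusted p = 0.0534). The second was lost when any of 9 arrays was left out, namely EB5 replicates 1 and 3, all 3 of RKPG9, all 3 of HP3 or HP4 replicate 3 (differences -0.35 to -0.19, adjusted p = 0.0535 to 0.175). Scaled on their own, the channels gave 0.06 in Cy3 and 0.51 in Cy5 for RKPG9 against EB5, and 0.10 and 0.42 for HP3, so the lower ratio came with a higher reference signal. With median centring neither difference passed (adjusted p = 0.111 and 0.193), nor did either in Cy3 alone (adjusted p = 0.913 and 0.473). The size depended on the background step, with RKPG9 minus EB5 at -1.09 and HP3 minus EB5 at -1.27 with the scanner's processed signals (adjusted p = 0.00849 and 0.00412), and -0.66 and -0.92 with offset 0 (adjusted p = 0.0478 and 0.0118). For HP4, whose spots were not well above background on any array, no difference is given.

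Gnpnat1, the acetyltransferase of the pathway, was lower in HP4 than in each of the other lines. Its level was 1.74, 1.76 and 1.90 for EB5, 1.61, 1.69 and 1.66 for RKPG9, 1.68 and 1.86 for HP3, where the spot of replicate 2 was an outlier and was left out, and 1.08, 1.45 and 1.45 for HP4. The 3 HP4 arrays lay below all others. HP4 was 1.39-fold below EB5 (log2 difference -0.47, SE 0.09, adjusted p = 0.00224), 1.26-fold below RKPG9 (-0.33, adjusted p = 0.0177) and 1.36-fold below HP3 (-0.44, adjusted p = 0.011). Without RKPG9 replicate 2 the second of these had an adjusted p of 0.0553 (-0.31), and without HP3 replicate 3 the last had 0.0895 (-0.35). With offset 0 the second stood at an adjusted p of 0.053, and in Cy3 alone the last at 0.0787. HP3 against EB5 gave -0.03 (95% interval -0.27 to 0.20, adjusted p = 0.844) and RKPG9 against EB5 -0.15 (-0.35 to 0.06, adjusted p = 0.27).

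Pgm3, the phosphoacetylglucosamine mutase, was too dim to compare closely. Its Cy3 spot was well above background on 4 of 12 arrays and on 0 of 3 in RKPG9, and its level lay between 0.05 and 0.36 over all 12 arrays, with every pair of lines overlapping. No difference is given for RKPG9. The 3 differences among the other lines did not pass (adjusted p = 0.488 to 0.909), and the interval for HP3 against EB5 was -0.23 to 0.09.

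Uap1, the pyrophosphorylase that makes UDP-GlcNAc, was slightly lower in both knockout lines as processed here. Its level was -1.51, -1.42 and -1.45 for EB5, -1.38 and -1.39 for RKPG9, where the outlier spot of replicate 1 was left out, -1.52, -1.58 and -1.58 for HP3, and -1.63, -1.58 and -1.58 for HP4. Both knockout lines lay below both other lines on every usable array. The differences were small, 1.13-fold for HP3 against RKPG9 (log2 difference -0.18, adjusted p = 0.00648), 1.16-fold for HP4 against RKPG9 (-0.21, adjusted p = 0.00148), 1.10-fold for HP4 against EB5 (-0.14, adjusted p = 0.00921) and 1.08-fold for HP3 against EB5 (-0.10, adjusted p = 0.0429). The last call was lost without any of 8 arrays, EB5, RKPG9, HP3 or HP4 replicate 2 or 3 (-0.10 to -0.09, adjusted p = 0.0525 to 0.131), and both differences from EB5 turned to 0.23 for HP3 and 0.11 for HP4 in the Cy3 channel alone, while HP4 minus EB5 was 0.04 without background subtraction. With the outlier spots kept, none of the 4 passed (adjusted p = 0.1 to 0.387), nor did any with the authors' own table of levels (adjusted p = 0.0595 to 0.354). In Cy3 alone the differences from RKPG9 did not pass, at -0.07 for HP3 (adjusted p = 0.772) and -0.19 for HP4 (adjusted p = 0.144). Without background subtraction HP4 minus RKPG9 was -7e-04 (adjusted p = 0.988).

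Ogt, the transferase that places GlcNAc on proteins, had 2 features, 1 of them too dim to compare in HP4. The dimmer one (A_65_P19501) read -0.16, -0.19 and -0.09 for EB5, -0.15, -0.26 and -0.32 for RKPG9, -0.46, -0.32 and -0.26 for HP3, and -0.64, -0.71 and -0.75 for HP4, where it was not well above background on any array. The HP4 arrays lay below all others on it, but for spots that dim no difference is given.

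The brighter Ogt feature (A_65_P12712) read 0.43, 0.46 and 0.39 for EB5, 0.31, 0.32 and 0.36 for RKPG9, 0.25, 0.28 and 0.20 for HP3, and 0.32, 0.42 and 0.34 for HP4. HP4 overlapped EB5 on it, with a difference of -0.06 (95% interval -0.14 to 0.02, adjusted p = 0.174). HP3 was below EB5 on both features, by 0.19 on the brighter (adjusted p = 0.00254) and by 0.20 on the dimmer (adjusted p = 0.0237), although the brighter one gave 0.09 in Cy3 alone. The call of the dimmer one was lost without EB5 replicate 1 (-0.21, adjusted p = 0.0501), EB5 replicate 3 (-0.17, adjusted p = 0.0859) or HP3 replicate 1 (-0.14, adjusted p = 0.0911). HP4 minus HP3 was 0.12 on the brighter feature (adjusted p = 0.0273), was lost without HP3 replicate 1 or 3 or HP4 replicate 2 (0.09 to 0.13, adjusted p = 0.0559 to 0.101), and turned to -0.28 with median centring.

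**Figure D3:**
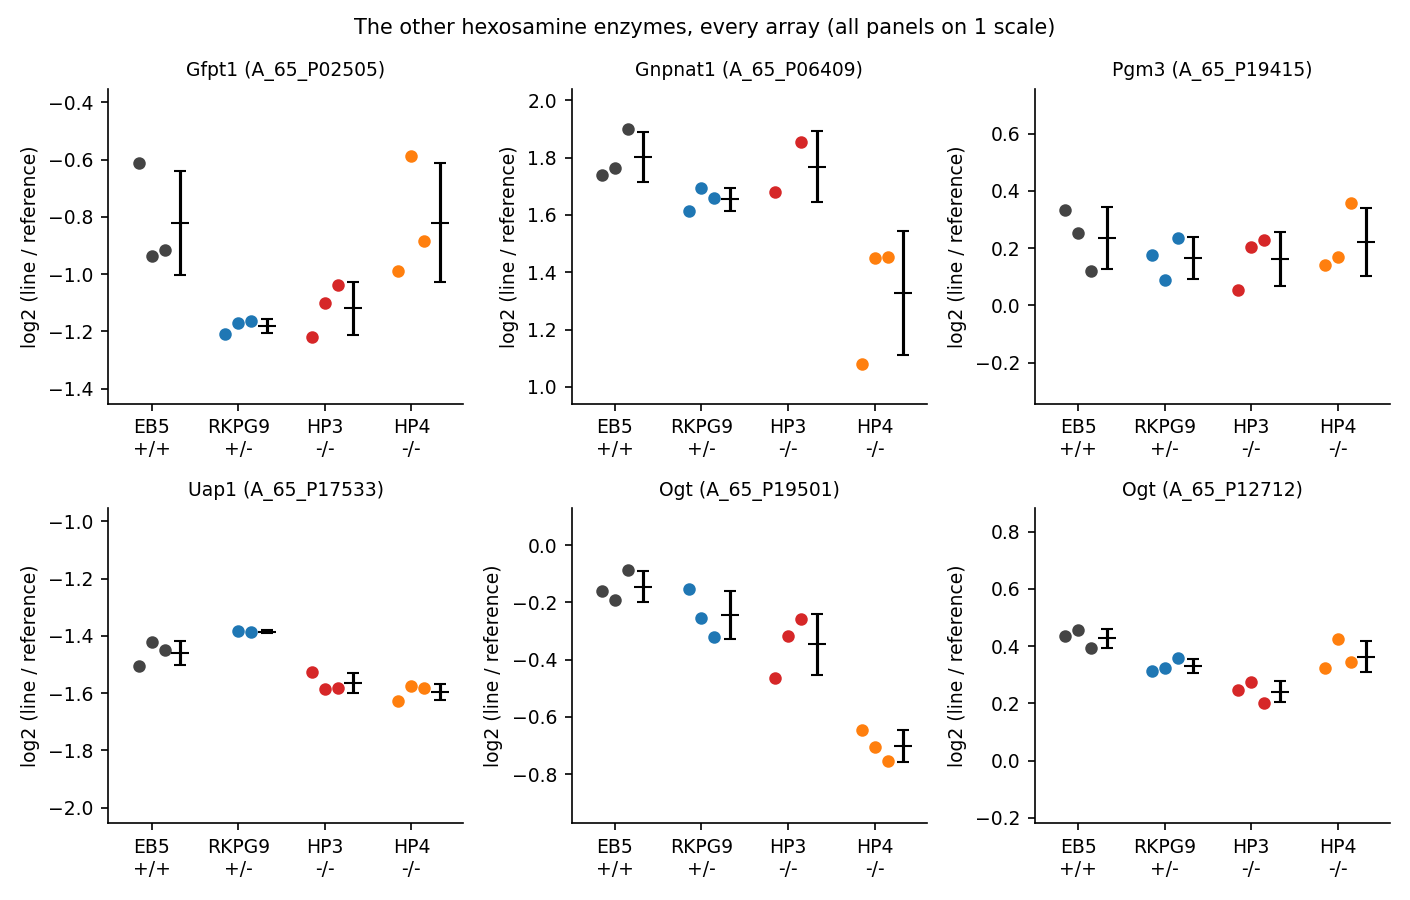
Level of the other 5 hexosamine enzymes on every usable array (log2 of line over reference, y axis), with the mean and SD of each line. All panels share one scale, and Gnpnat1 in HP4 lies 0.47 below EB5. The spots of Gfpt1 and A_65_P19501 in HP4 and of Pgm3 in RKPG9 were not well above background on any array.

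Counted by the brightest feature of each gene, 3 of the 5 other enzymes were lower in HP3 than in EB5 (Gfpt1, Uap1 and Ogt). The other 2 did not pass. Over all features, 19.1% were lower in that comparison. All 5 differences were below 0 as processed here. In Cy3 alone Uap1 stood at 0.23, Ogt at 0.09 and Gnpnat1 at 0.01, with Pgm3 at -0.04 and Gfpt1 at -0.09. Scaled on its own, the reference signal in Cy5 was higher on the HP3 arrays for Uap1 (0.55), Ogt (0.47), Gfpt1 (0.42) and Gnpnat1 (0.36). For Pgm3 it differed by 0.01. The part of the reference signal in these differences was not tested. In RKPG9 against EB5 1 of the 5 was lower (Gfpt1), beside 21.6% of all features lower, and in HP4 against EB5 2 were lower (Gnpnat1 and Uap1), beside 26.4%, and none of the others passed in either. As processed here none of the differences given for the 5 was past 2-fold, while Gnpnat1 in HP4 minus EB5 was -1.02 with median centring (adjusted p = 1.33e-05) and Gfpt1 in HP3 and RKPG9 minus EB5 was past it with the processed signals. Between lines of the same session, Uap1 was the enzyme called in HP3 against RKPG9 (lower, with 12.6% of all features higher and 10.1% lower). With Gfpt1 left aside, HP4 against RKPG9 gave 2 lower, Gnpnat1 and Uap1 (19.1% of all features), and HP4 against HP3 gave Gnpnat1 lower (14.7%) and Ogt higher (13.7%), the last with a direction that turned under median centring.

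**Figure D4:**
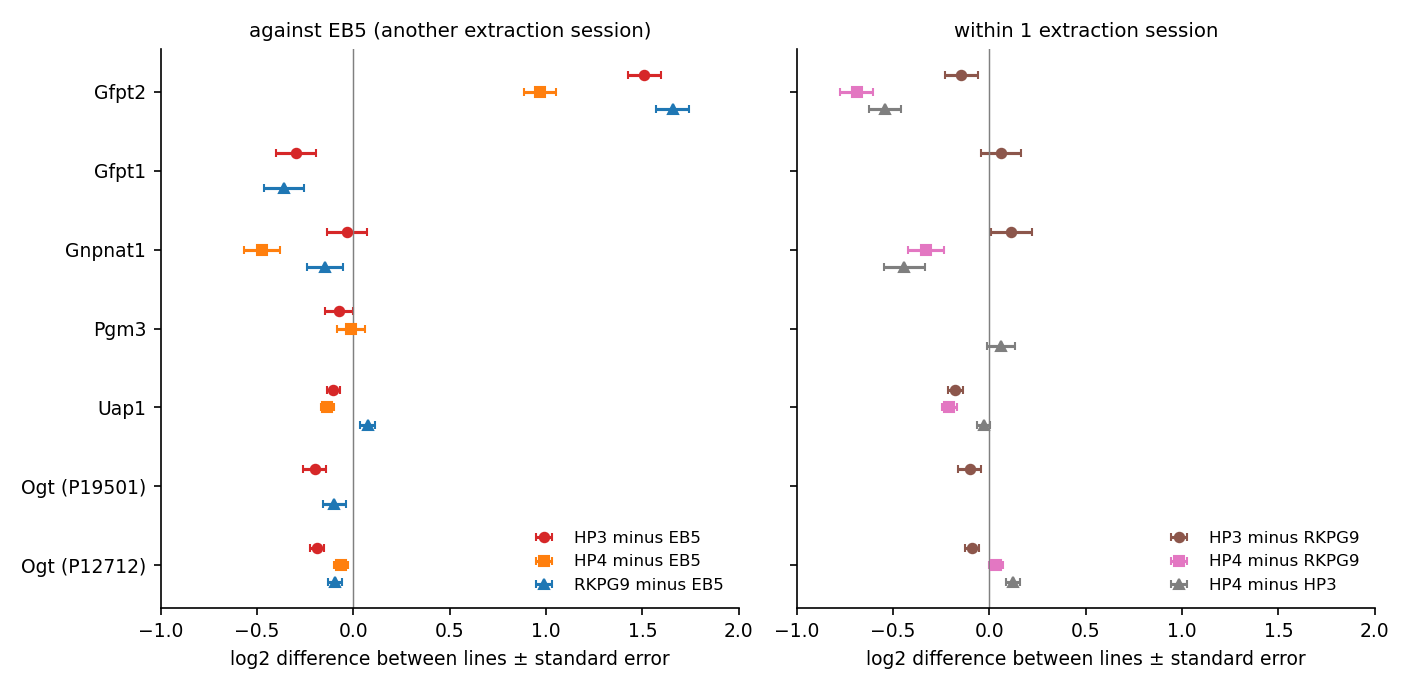
Difference between lines (log2, x axis, with the standard error) of Gfpt2 and the other hexosamine features, on the left against EB5 and on the right among the 3 lines of one extraction session. Gfpt2 stands at 0.97 to 1.66 on the left, while the others lie between -0.47 and 0.07. Gfpt1 and A_65_P19501 in HP4 and Pgm3 in RKPG9, not well above background on any array, are not plotted.

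Of the 50 genes on 4 lists around UDP-GlcNAc, Gfpt2 left out, 35 were measured, 33 of them well above background in Cy3 on all arrays. In HP3 against EB5, 7 of the 35 were higher, 12 were lower and 16 did not pass (11.4% of all features were higher and 19.1% lower), and the list median was -0.07 beside -0.02 for all features. That split was 2 higher and 16 lower with median centring and 6 higher and 5 lower in Cy3 alone. RKPG9 against EB5 also gave 7 higher and 12 lower (12.5% and 21.6% of all features), with 4 and 13 under median centring and 10 and 3 in Cy3 alone. In HP4 against EB5 it was 7 and 15 (18.4% and 26.4%), with 1 and 27 and 9 and 8. The shares of all features are those as processed here. Shares under the other settings are not given, so the changed splits are not read as a result about these lists. As processed here none of the 35 was past 2-fold in any comparison at an adjusted p under 0.05.

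Among the lines of one session, HP3 against RKPG9 gave 7 higher and 7 lower (12.6% and 10.1% of all features), or 2 and 10 with median centring. HP4 against RKPG9 gave 9 higher and 14 lower (20.9% and 19.1%), or 3 and 24 with median centring and 13 and 12 without background subtraction. HP4 against HP3 gave 10 higher and 11 lower (13.7% and 14.7%), or 2 and 25 with median centring, 14 and 9 without background subtraction and 2 and 4 in Cy3 alone. Here too the shares of all features hold only for the processing used in the text. Gfpt1, whose HP4 spots were not well above background, is among the higher genes in both comparisons of HP4.

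**Figure D5:**
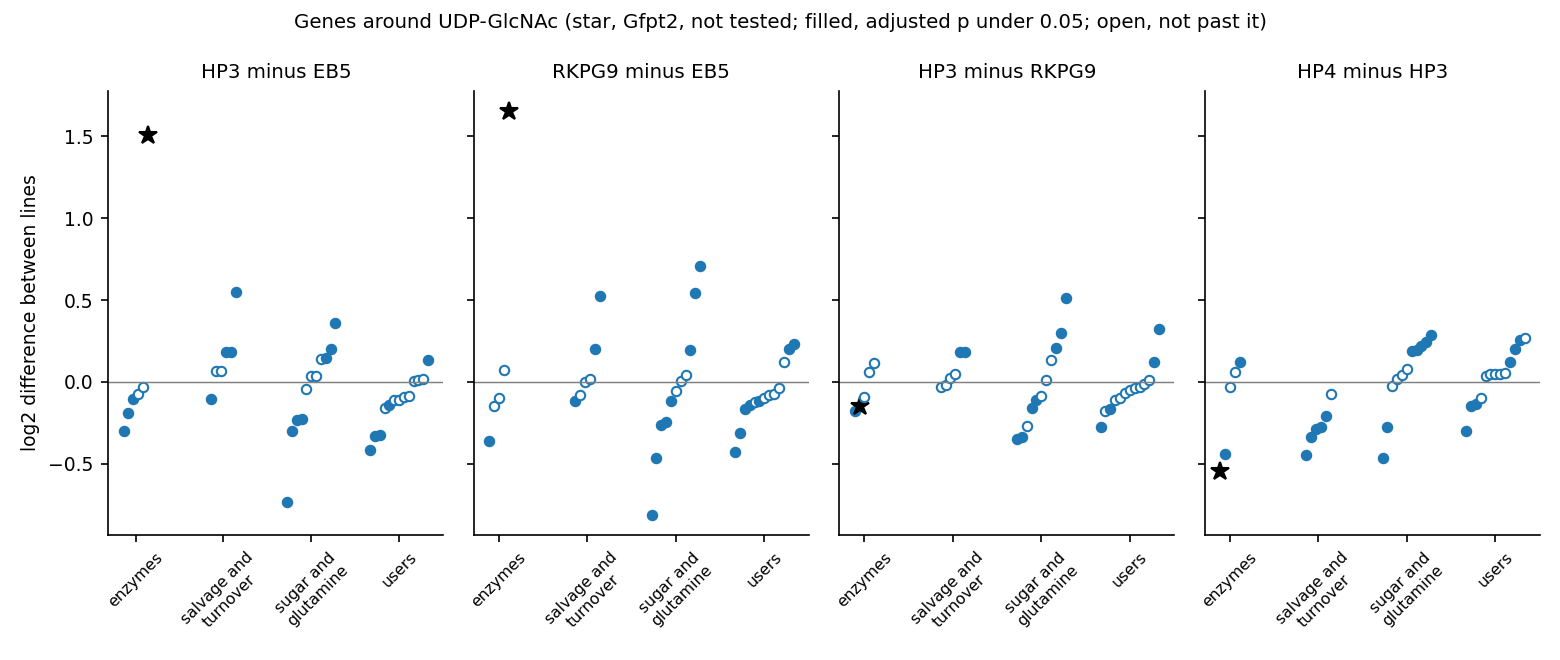
Difference between lines (log2, y axis) of every measured gene on the 4 lists, ordered by size within each list, for 4 pairs of lines, without Gfpt1 in HP4 and Pgm3 in RKPG9. Filled circles passed at an adjusted p under 0.05, open circles did not, and the star is Gfpt2, which was not tested and lies at 1.51 and 1.66 in the comparisons with EB5, above every other gene shown.

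The salvage and turnover list holds enzymes that recover or break down amino sugars, and 3 of its 6 measured genes of 9 were higher in HP3 than in EB5 (11.4% of all features), 1 was lower (19.1%) and 2 did not pass. Gnpda1, a deaminase that runs the entry step backwards, had line means of 1.07 for EB5, 1.60 for RKPG9, 1.62 for HP3 and 1.18 for HP4. It was 1.46-fold higher in HP3 than in EB5 (log2 difference 0.55, adjusted p = 1.36e-05) and 1.44-fold higher in RKPG9 (0.52, adjusted p = 1.06e-05), and HP3 minus RKPG9 was 0.03 (95% interval -0.09 to 0.14), or -0.14 without background subtraction. In Cy3 alone HP3 minus EB5 was 0.13 (adjusted p = 0.295). Its 3 HP4 arrays, at 1.15 to 1.22, lay between those of EB5, at 1.06 to 1.10, and those of RKPG9 and HP3, at 1.51 or above.

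Renbp, which binds renin and epimerises N-acetylglucosamine, differed less, by 0.18 in HP3 and 0.20 in RKPG9 against EB5 (adjusted p = 0.00751 and 0.00356). Oga was 1.13-fold higher in HP3 than in RKPG9 on its brighter feature (adjusted p = 0.00155) and 1.21-fold on the other (adjusted p = 0.000468). Against EB5 the Oga features differed in their calls, with HP3 at 0.07 (adjusted p = 0.153) and 0.19 (adjusted p = 0.00534). With median centring none of these calls of Renbp and the brighter Oga feature passed. In HP4 against EB5 the 2 Oga features were called in opposite directions. The brighter stood at -0.145 (adjusted p = 0.00373) and the other at 0.11 (adjusted p = 0.0422), and the list counts use the brighter. In HP4 against HP3, 5 of the 6 measured genes of this list were lower by their brightest feature. The remaining gene, Nagk, stood at -0.08 (adjusted p = 0.151). Oga is counted as lower by its brighter feature, while its other feature did not pass (-0.07, adjusted p = 0.214). The list median was -0.28, beside 14.7% of all features lower.

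Of the sugar and glutamine supply list, 3 of 11 measured genes of 13 were higher in HP3 than in EB5 and 4 were lower, beside 11.4% and 19.1% of all features. Glul, which makes glutamine, had line means of 1.57 for EB5, 2.28 for RKPG9, 1.93 for HP3 and 1.65 for HP4, the same order as Gfpt2. It was 1.63-fold higher in RKPG9 (log2 difference 0.71, adjusted p = 1.75e-08) and 1.28-fold higher in HP3 (0.36, adjusted p = 8.83e-06) than in EB5. HP3 was 1.27-fold below RKPG9 (adjusted p = 7.1e-06).

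Slc2a1, a glucose transporter, was ordered the other way, with line means of 0.20 for EB5, -0.62 for RKPG9, -0.10 for HP3 and 0.09 for HP4. It was 1.76-fold lower in RKPG9 (log2 difference -0.81, adjusted p = 6.25e-09) and 1.23-fold lower in HP3 (-0.30, adjusted p = 3.27e-05) than in EB5, and 1.42-fold higher in HP3 than in RKPG9 (adjusted p = 4.26e-07). Hk1, a hexokinase, was 1.66-fold lower in HP3 than in EB5 (adjusted p = 0.00347), with 1 usable EB5 spot, at -1.58 against -2.46 to -2.14 in HP3, so the test takes the spread of EB5 from the other lines.

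Among the users of UDP-GlcNAc, 1 of 13 measured genes of 23 was higher in HP3 than in EB5, 4 were lower and 8 did not pass, beside 11.4% higher and 19.1% lower of all features. Mgat4b, which adds a branch to N-glycans, was 1.33-fold lower in HP3 than in EB5 (log2 difference -0.42, adjusted p = 2.06e-05) and 1.21-fold lower than in RKPG9 (-0.28, adjusted p = 0.00039). Has2, a hyaluronan synthase, was lower than in EB5 in both HP3 (-0.33, adjusted p = 0.000338) and RKPG9 (-0.31, adjusted p = 0.000316). Alg14, part of an enzyme that helps build the N-glycan precursor, was 1.35-fold lower in RKPG9 than in EB5 (-0.43, adjusted p = 9.51e-06) and 1.25-fold higher in HP3 than in RKPG9 (0.32, adjusted p = 0.000136). In Cy3 alone the calls of Mgat4b in HP3 against EB5 (-0.23, adjusted p = 0.122) and of Alg14 in RKPG9 against EB5 (-0.02, adjusted p = 0.894) were lost, as was that of Mgat4b against RKPG9 without background subtraction (-0.07, adjusted p = 0.109).

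Over the 12 arrays, the 5 genes whose ratio most resembled that of Gfpt2 were drawn from 108 candidates, features with a symbol, a usable spot on every array and line means over a range of more than 1. They were Mest (Pearson r = 0.952), Trh (0.92), the feature the files name Gli (0.92), Sall1 (0.899) and Ptch1 (0.88). Arrays of a line and the reference RNA are shared by all of these points, so r is a description of the 12 arrays. Mest, an imprinted gene, had line means of 1.27 for EB5, 2.55 for RKPG9, 2.23 for HP3 and 2.14 for HP4. Trh, which encodes thyrotropin-releasing hormone, had 4.22, 5.23, 5.12 and 4.90. The 5 genes share with Gfpt2 the order RKPG9, HP3, HP4, EB5 of their line means, which follows largely from their choice by r on the same arrays. For Ptch1, the hedgehog receptor, RKPG9 at 3.36 stood further above HP3 at 2.63 than it did for Gfpt2.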

How the data were processed

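RNA of 4 ES cell lines, 3 arrays each, was measured on 2-colour Agilent arrays. The deposited intensities, mean signal and local background of each spot, came from Agilent Feature Extraction 7.5.1, the version recorded in the header of each array. The authors' table holds log10 levels, of which 93.82 to 95.9% lay within 0.01 of minus the scanner's log ratio plus a constant per probe (column medians 2.868 to 2.88).

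The intensities were corrected by normexp (offset 50) and loess within arrays with limma 3.58.1 in R 4.3.3. Control spots and feature outliers were left out, spots marked for their background were kept, and log2 ratios, Cy3 over Cy5, were averaged per probe. One linear model over 12 arrays without covariates gave 6 comparisons (8 residual and 3.42 prior degrees of freedom), with Benjamini-Hochberg adjustment over all gene probes. A call is an adjusted p under 0.05, and 3 arrays a line limit the precision. The steps were tested on simulated data.

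Symbols of the files were current for 4326 probes and updated through a RefSeq table for 4172, while 699 were not in it and 11084 probes had none. Named genes were all hexosamine probes, up to 3 genes of each other list with the largest difference in HP3 against EB5 and up to 3 in HP3 against RKPG9 among those called, and the 5 genes most like Gfpt2. Some genes that this rule names are not reported here, though the counts over the lists hold them. The members and lists were chosen with earlier results of these data known. No difference is given for a hexosamine feature in a line where no array had it well above background in Cy3. Python 3.11.15 and matplotlib 3.10.9 were used for sequences and plots. Alternatives changed the signals, background, offset, normalisation, channel, outlier spots, probe filter, arrays and pairing.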

Additional observations from a re-analysis of the deposited data

Results flagged for a closer look

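For 2 features of the other hexosamine enzymes the knockout lines HP3 and HP4 differed from each other by the limma test of that difference, over 3 arrays a line. Gnpnat1 stood at -0.44 in HP4 minus HP3 (adjusted p = 0.011), or -0.35 without HP3 replicate 3 (adjusted p = 0.0895). The brighter Ogt feature stood at 0.12 (adjusted p = 0.0273), lost the call without HP3 replicate 1 or 3 or HP4 replicate 2 (0.09 to 0.13) and turned to -0.28 with median centring.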

How the results depend on the processing

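The sign of each Gfpt2 difference was kept under every alternative that gave a value, and its size moved under some of them. Aquantile, the probe filter, the replicate block and a fit of only the compared lines could not change it. Nor could leaving out an array of a line outside the comparison. For HP3 minus EB5 it was 1.86 with the scanner's processed signals and with the authors' table, 1.75 with offset 0, 0.84 without background subtraction, 1.31 with median centring, 1.17 in Cy3 alone and 1.25 in Cy3 without the quantile step. For RKPG9 minus EB5 the same order gave 1.87, 1.77, 1.10, 1.46, 1.32 and 1.46. HP4 minus EB5 was 1.55 with the processed signals and the authors' table, 1.41 with offset 0, 0.25 without background subtraction and 0.62 in Cy3 without the quantile step. HP3 minus RKPG9 was -0.013 with the processed signals and the authors' table, -0.0295 with offset 0 and -0.26 without background subtraction. HP4 minus RKPG9 was -0.33 with the processed signals and the authors' table, -0.37 with offset 0 and -0.41 in Cy3 alone, and HP4 minus HP3 -0.31 with the first pair and -0.26 in Cy3 alone. Leaving out 1 array gave 1.47 to 1.54 for HP3 minus EB5, 0.91 to 1.09 for HP4 minus EB5, 1.62 to 1.68 for RKPG9 minus EB5, -0.19 to -0.12 for HP3 minus RKPG9, -0.75 to -0.57 for HP4 minus RKPG9 and -0.60 to -0.42 for HP4 minus HP3.

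In Cy3 alone the pathway genes called fell from 19 to 11 in HP3 against EB5, from 14 to 7 in HP3 against RKPG9 and from 21 to 6 in HP4 against HP3. Without 1 array they were 14 to 20 in HP3 and in RKPG9 against EB5, 20 to 23 in HP4 against EB5, 12 to 16 in HP3 against RKPG9, 21 to 24 in HP4 against RKPG9 and 17 to 21 in HP4 against HP3. For these counts the share of all features called under the same setting is not given. Of 1291 alternatives of 54 single-gene differences, 1137 kept sign and call, 84 lost the call, 18 gained it, 11 changed sign with a call on either side and 41 changed sign without one. In Cy3 alone Uap1 gave 0.23 in HP3 and 0.11 in HP4 minus EB5, the brighter Ogt feature 0.09 and 0.32, Alg14 0.33 in HP3 minus EB5 and Mgat4b 0.12 in RKPG9 minus EB5. Without background subtraction Uap1 gave 0.039 in HP4 minus EB5 and 0.11 in HP4 minus HP3, and Gnpda1 -0.14 in HP3 minus RKPG9. Median centring gave the brighter Ogt feature -0.45 in HP4 minus RKPG9 and -0.28 in HP4 minus HP3. The cause was not tested.

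Arrays with the same replicate number deviated together by r = -0.18 to 0.20, with 7 of 12 closest to their own number, so the numbers were not taken as pairs. With the replicate number as a block, the Gfpt2 differences (1.51, 0.97, 1.66, -0.15, -0.69 and -0.54) were bound to stay the same. The Gfpt2 spot was usable on all 12 arrays and every line holds each number once, so the block is no check of Gfpt2. The pathway calls with the block were 15 in HP3, 21 in HP4 and 20 in RKPG9 against EB5. They were 14 and 23 in HP3 and HP4 against RKPG9 and 20 in HP4 against HP3. The share of all features called in the fit with the block is not given. With the block the HP3 minus EB5 calls of Gfpt1 (adjusted p = 0.0712) and Uap1 (adjusted p = 0.0635) were lost and Hk1 gained one in HP3 minus RKPG9 (-0.27, adjusted p = 0.03). Leaving out spots marked for their background, like the Cy3 channel without the quantile step, was chosen after seeing the data, and it gives no Gfpt2 value against EB5, since all 3 EB5 spots carry that mark. Aquantile between arrays leaves ratios as they are. Signal over background limits Gfpt1 and Pgm3 most.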
